A study of Mus musculus with 4 samples.

Results

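The 10 genes described here encode enzymes that remove superoxide and peroxides or keep protein thiols reduced: the peroxiredoxins *Prdx1*, *Prdx2*, *Prdx3*, *Prdx4* and *Prdx6*, thioredoxin *Txn1* and its reductase *Txnrd1*, the glutathione peroxidase *Gpx4*, and the superoxide dismutases *Sod1* and *Sod2*. They were taken by gene symbol, and all 10 had a row in the table of 11598 genes. Ribosome-protected fragments (RPFs, stretches of mRNA covered by a translating ribosome and so kept from digestion) were sequenced from leptotene/zygotene spermatocytes by Ribo-seq. The cells came from testes of mice at 12 days postpartum (dpp) and were sorted by flow cytometry. There were 2 libraries from control mice, called wild type in the labels, and 2 from *Eef1g*-cKO mice, in which a floxed *Eef1g* made on a C57BL/6J background lost exons 2 to 7 through *Stra8*-GFPCre. This Cre acts in the germ line from type A1 spermatogonia onward, so the deletion came before meiosis. *Eef1g* encodes the gamma subunit of translation elongation factor 1. Nothing in the labels says how many mice stand behind a library or that libraries came from different mice, so p-values measure only the spread between libraries, which may be technical.

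Superoxide dismutases turn superoxide into hydrogen peroxide, *Sod1* in the cytosol and *Sod2* in mitochondria. Peroxiredoxins reduce that peroxide with a reactive cysteine, the peroxidatic cysteine, which most of them regain through thioredoxin, and thioredoxin is in turn reduced by thioredoxin reductase with NADPH. GPX4 reduces lipid peroxides with glutathione and is an abundant structural protein of mature sperm. RPF abundance of a gene combines how much of its mRNA a cell holds with how densely ribosomes occupy it, and these libraries do not separate the terms.

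The peroxiredoxin genes are similar in sequence, which matters for short reads. The 30 bases of coding sequence around the codon of the peroxidatic cysteine (capitals) are shown 5′ to 3′ on the coding strand, from RefSeq on GRCm38. They lie at chr4:116691811-116691840 (plus strand) for *Prdx1*, chr8:84970471-84970500 (plus) for *Prdx2* and chr1:161247353-161247382 (minus) for *Prdx6*. Those of *Prdx3* (chromosome 19, minus) and *Prdx4* (chromosome X, minus) cross an exon junction, and their cysteine codons are at chr19:60870127-60870129 and chrX:155332460-155332462.
Prdx1: tttacttttgtgTGTcccacggagatcatt
Prdx2: ttcacttttgttTGCcccacggagatcatc
Prdx3: ttcacatttgtgTGTcctacagaaattgtt
Prdx4: ttcacctttgtgTGTccaactgaaatcatc
Prdx6: tttaccccagtgTGCaccacagaacttggc
In this window *Prdx1* and *Prdx2* differed at 4 of 30 bases and *Prdx1* and *Prdx4* at 6. *Prdx6* differed from each of the others at 11 to 13. No 30-base window of the whole coding sequence was shared between any pair of the 5 genes, so a footprint of that length that matches exactly belongs to a single member of this set.

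Copies elsewhere in the genome were a different matter. Of the 571 such windows in the coding sequence of *Prdx1*, 70.9% also occurred elsewhere on the GRCm38 chromosomes. The share was 58.4% for *Gpx4* (with *Gpx4-ps1* and *Gpx4-ps2* among the sites), 50.7% for *Sod1*, 43.5% for *Prdx2* (*Prdx2-ps1* and *Prdx2-ps2*), 26.0% for *Txn1* (*Txn-ps1*), 11.8% for *Prdx6* (*Prdx6-ps2* and *Prdx6b*) and 1.50% for *Prdx4*. It was 0 for *Prdx3*, *Txnrd1* and *Sod2*. How reads with several sites were counted is not given in the sources used here, so the levels of the first 7 genes are uncertain to that extent.

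*Txnrd1* and *Gpx4* are selenoproteins, whose mRNAs carry a UGA codon that is read as selenocysteine (TGA in the DNA, in capitals). The 30 bases around it are at chr10:82896016-82896045 for *Txnrd1* and chr10:80054724-80054753 for *Gpx4*, both on the plus strand, from RefSeq on GRCm38.
Txnrd1: gacatcctccagtctggctgcTGAggttaa
Gpx4: cgtggcctcgcaaTGAggcaaaactgacgt
In *Txnrd1* this is codon 612 of 613, so a ribosome has read nearly the whole frame before it. In *Gpx4* it is codon 129 of 253 in the transcript used.

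The libraries differed greatly in depth: 2479504 and 1384282 reads on genes in control against 223906 and 407979 in *Eef1g*-cKO. The median gene had 60 and 34 reads in control, compared with 5 and 8 in *Eef1g*-cKO. *Eef1g* itself was at 27.6 and 26.8 FPKM (reads per kilobase of gene and 1000000 reads on genes) in control, compared with 0 and 6.26 in *Eef1g*-cKO, or 0 and 4 reads. Leptotene/zygotene markers were present in all 4 libraries, and their 10 genes summed to 1988 and 1620 FPKM in control, compared with 4514 and 4121 in *Eef1g*-cKO. The 8 spermatogonial markers went the other way, at 1270 and 1480 FPKM in control, compared with 184 and 162 in *Eef1g*-cKO. The 7 Sertoli cell markers in the table summed to 764 and 186 FPKM in control, where all 7 were higher in replicate 1, and 214 and 126 in *Eef1g*-cKO. No macrophage or red blood cell marker of the lists was in the table. These shifts run alongside every difference below, and their part in the results was not tested. By antibody staining, the paper reports similar shares of leptotene/zygotene spermatocytes among the sorted cells of both genotypes. Whether the stained cells came from the sorts behind these libraries is not stated. In sorted cells measured in bulk, fewer cells of a type and less RNA per cell cannot be told apart.

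The 10 genes did not move as a block in *Eef1g*-cKO spermatocytes. *Prdx4* rose 2.30-fold on the log2(FPKM + 1) scale, *Prdx2* fell to 0.194 and *Txn1* to 0.259 of control, and the most abundant member, *Sod1*, had similar values in both genotypes. *Prdx6*, *Prdx3*, *Gpx4* and *Txnrd1* had lower values in both *Eef1g*-cKO libraries than in both control libraries but did not pass the adjusted p. Genes were called with limma on log2(FPKM + 1) at a Benjamini-Hochberg adjusted p under 0.05 over the 10475 tested genes, those averaging 1 FPKM or more, together with a change of more than 1 on the log2 scale. All 10 members were above this filter. Of them 1 was called higher and 2 lower, where 2.87% of all tested genes were called higher and 4.97% lower. By unadjusted p the counts were 1 higher and 5 lower, against 7.32% and 16.3% of all tested genes.

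**Figure D1:**
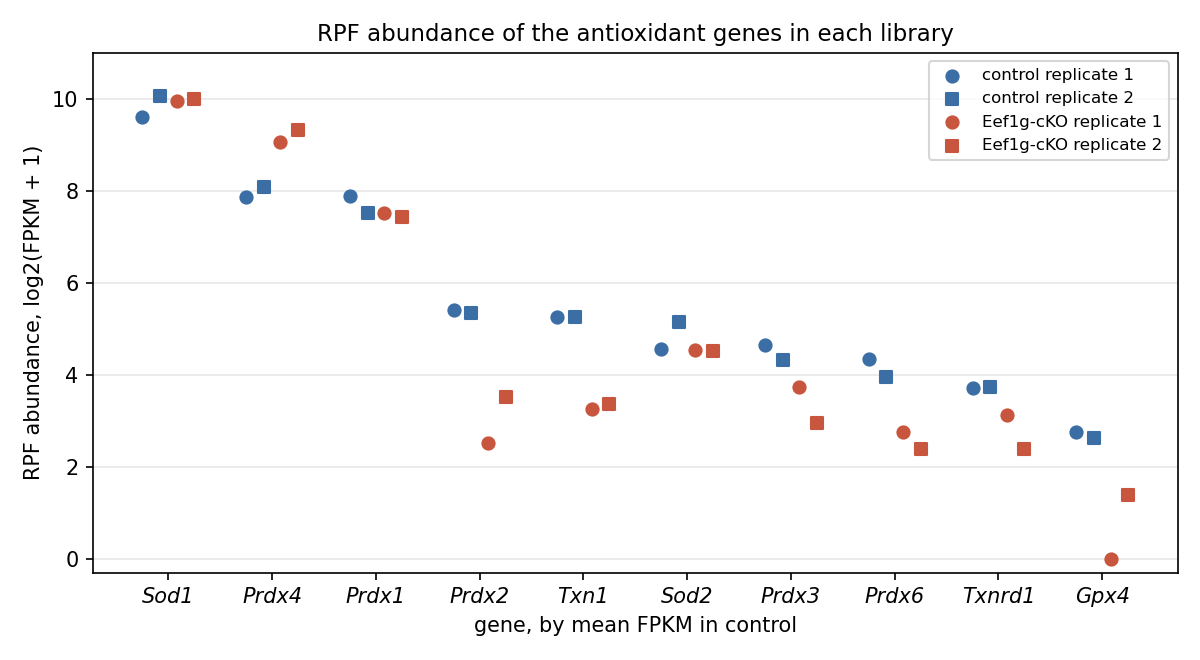
RPF abundance of each of the 10 genes on the log2(FPKM + 1) scale, 1 point per library, with genes ordered by their mean FPKM in control. The *Eef1g*-cKO points of *Prdx4* lie above both control points and those of *Prdx2*, *Txn1* and *Prdx6* well below them, while those of *Sod1* lie between the control points.

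*Prdx4*, the peroxiredoxin of the endoplasmic reticulum, was at 234 and 271 FPKM in control, compared with 531 and 636 FPKM in *Eef1g*-cKO. Both *Eef1g*-cKO libraries were above both control libraries, with 116 and 253 reads behind them. The log2 fold change was 1.20 ± 0.22 (SE, n = 2 and 2; limma, adjusted p = 0.0379), and count models on the reads gave adjusted p = 3.23e-04 (edgeR) and 7.65e-05 (DESeq2). The limma call was lost when any single library was left out, with adjusted p from 0.0513 to 0.220, while the log2 fold change stayed between 1.07 and 1.33.

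*Prdx2*, a cytosolic peroxiredoxin, was at 41.5 and 39.9 FPKM in control, compared with 4.74 and 10.4 FPKM in *Eef1g*-cKO. The *Eef1g*-cKO values rest on 1 and 4 reads, against 97 and 52 in control. On the log2 scale the difference was -2.37 ± 0.40 (SE, n = 2 and 2; limma, adjusted p = 0.0352), and edgeR on the reads gave adjusted p = 0.0140. Pooled over libraries, the rate of *Prdx2* reads in *Eef1g*-cKO was 0.205 of control, with an exact 95% counting interval of 0.0657 to 0.490. The call was lost with DESeq2 (adjusted p = 0.0985) and, in limma, without control replicate 1 (adjusted p = 0.285) or without control replicate 2 (adjusted p = 0.330).

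*Prdx1*, the other abundant cytosolic peroxiredoxin, was at 237 and 183 FPKM in control, compared with 183 and 173 FPKM in *Eef1g*-cKO. Control replicate 2 and *Eef1g*-cKO replicate 1 were almost level. The log2 fold change of -0.23 ± 0.22 (SE, n = 2 and 2) did not pass (limma, adjusted p = 0.509) and equalled the median of -0.23 over all tested genes. With each library centred on its median, which moves every value by about that amount, the log2 fold change of *Prdx1* was -0.01. *Prdx1* and *Prdx2* have the 2 most similar windows shown above, and the FPKM ratio of *Prdx2* to *Prdx1* was 0.175 and 0.218 in control, compared with 0.0259 and 0.0602 in *Eef1g*-cKO. This ratio does not depend on the scaling of a library.

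*Prdx6*, which reduces peroxides through glutathione and has a phospholipase activity, was at 19.4 and 14.5 FPKM in control, compared with 5.74 and 4.20 FPKM in *Eef1g*-cKO. The groups did not overlap, on 3 and 4 reads in *Eef1g*-cKO. The log2 fold change was -1.59 ± 0.37 (SE, n = 2 and 2; limma, adjusted p = 0.0575), and edgeR on the reads gave -1.75 with adjusted p = 0.0302. *Prdx3*, the mitochondrial peroxiredoxin, was at 24.0 and 19.0 FPKM in control, compared with 12.4 and 6.79 FPKM in *Eef1g*-cKO, with 4 reads in each *Eef1g*-cKO library. Its log2 fold change of -1.13 ± 0.38 (SE, n = 2 and 2) did not pass (limma, adjusted p = 0.115), except without *Eef1g*-cKO replicate 1 (adjusted p = 0.0339).

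Among the 5 peroxiredoxins, 4 thus had lower FPKM in each *Eef1g*-cKO library than in either control library, and *Prdx4* had higher. Over all 10 genes, 8 were below and 1 above, where 37.7% of all tested genes were below and 24.6% above. *Sod1* alone overlapped. The FPKM ratio of *Prdx4* to *Prdx1* was 0.987 and 1.48 in control, compared with 2.91 and 3.68 in *Eef1g*-cKO. *Prdx4* stood above *Prdx1* in both *Eef1g*-cKO libraries, while its place in control depends on the length used: per coding length, *Prdx4* was at 275 and 319 and *Prdx1* at 559 and 432 reads per kilobase and 1000000 reads.

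*Txn1*, cytosolic thioredoxin, was at 37.2 and 37.1 FPKM in control, compared with 8.50 and 9.33 FPKM in *Eef1g*-cKO. The libraries of each genotype lay close together, although the *Eef1g*-cKO values are 2 and 4 reads, where counting error is large. The fitted log2 fold change was -1.95 ± 0.27 (SE, n = 2 and 2; limma, adjusted p = 0.0296), and edgeR on the reads gave adjusted p = 0.0192. The pooled ratio of *Eef1g*-cKO to control was 0.243, with an exact 95% counting interval of 0.0878 to 0.541. The call was lost with DESeq2 (adjusted p = 0.127) and, in limma, without control replicate 1 (adjusted p = 0.195) or 2 (adjusted p = 0.223).

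*Txnrd1*, the selenoenzyme that reduces thioredoxin, was at 12.1 and 12.4 FPKM in control, compared with 7.78 and 4.27 FPKM in *Eef1g*-cKO, with 7 reads in each *Eef1g*-cKO library. The groups did not overlap. A log2 fold change of -0.96 ± 0.41 (SE, n = 2 and 2) did not pass (limma, adjusted p = 0.178), and the pooled ratio was 0.451 with a counting interval of 0.242 to 0.775. The difference between the changes of *Txn1* and *Txnrd1* was not tested. Their FPKM ratio was 3.07 and 2.99 in control, compared with 1.09 and 2.19 in *Eef1g*-cKO.

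*Gpx4*, the second selenoprotein of the set, was the least abundant member, at 5.78 and 5.18 FPKM in control, compared with 0 and 1.60 FPKM in *Eef1g*-cKO. These are 22 and 11 reads in control against 0 and 1. At the depth of *Eef1g*-cKO replicate 1, a count of 0 allows up to 3 reads, or 8.73 FPKM, more than either control value. The log2 fold change was -2.01 ± 0.62 (SE, n = 2 and 2; limma, adjusted p = 0.0970), and the pooled ratio of 0.185 had a counting interval of 0.00456 to 1.11, so a difference was not detectable at this depth. Without *Eef1g*-cKO replicate 2 the adjusted p was 0.0117, with the remaining *Eef1g*-cKO library at 0.

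*Sod1*, the cytosolic copper-zinc dismutase, was the most abundant member in every library, at 776 and 1074 FPKM in control, compared with 992 and 1018 FPKM in *Eef1g*-cKO. Both *Eef1g*-cKO values lay inside the range of the control libraries. Its log2 fold change was 0.14 ± 0.26 (SE, n = 2 and 2; limma, adjusted p = 0.744), and it was -0.10 without control replicate 1. The pooled ratio was 1.14, with a counting interval of 1.03 to 1.27 that leaves out the spread between libraries. *Sod1* had 144 and 269 reads in *Eef1g*-cKO, so depth limits this comparison less than that of any other member.

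*Sod2*, the mitochondrial manganese dismutase, was at 22.8 and 34.6 FPKM in control, compared with 22.2 and 21.8 FPKM in *Eef1g*-cKO. The *Eef1g*-cKO libraries were just below control replicate 1. A log2 fold change of -0.34 ± 0.30 (SE, n = 2 and 2) did not pass (limma, adjusted p = 0.474), and the pooled ratio was 0.812 with a counting interval of 0.598 to 1.08. All counting intervals here are at 95% and cover counting error alone, since reads without molecular identifiers are not independent molecules.

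**Figure D2:**
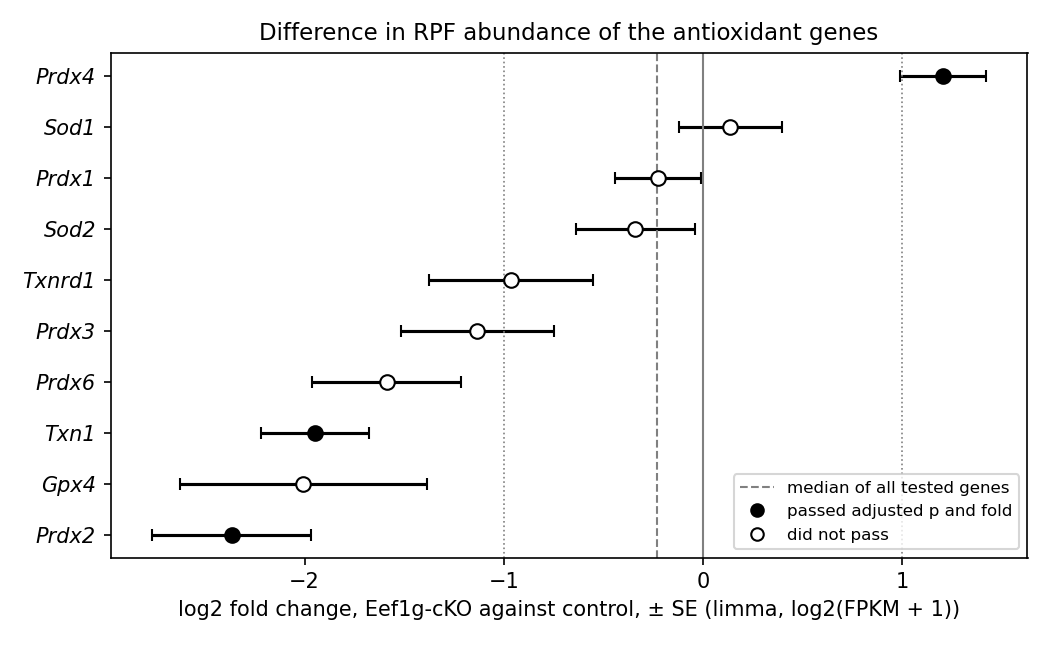
Log2 fold change of RPF abundance in *Eef1g*-cKO against control for each of the 10 genes (limma on log2(FPKM + 1); bars are ± 1 SE, n = 2 and 2 libraries), with dotted lines at a change of 1 in either direction. *Prdx4* at 1.20 is the only gene beyond 1 on the right, *Prdx1*, *Sod2* and *Sod1* lie near the median of all tested genes at -0.23, and the other 6 genes lie between -0.96 and -2.37.

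The median log2 fold change of the 10 genes was -1.05, beside -0.23 over all tested genes, and 8 of 10 values were negative, as were 6191 of 10475 over all tested genes. Among the 1705 tested genes called lower by unadjusted p, 910 had at most 3 reads in each *Eef1g*-cKO library. *Gpx4* was such a gene among the 5 members called lower by unadjusted p.

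The order of the levels was steep. In control the means ran from *Sod1* at 925 ± 210 FPKM (SD, n = 2 here and below) through *Prdx4* at 252 ± 26.5 and *Prdx1* at 210 ± 38.0 to *Prdx2* at 40.7 ± 1.17 and *Txn1* at 37.2 ± 0.0749. Below them came *Sod2* at 28.7 ± 8.34, *Prdx3* at 21.5 ± 3.54, *Prdx6* at 17.0 ± 3.40, *Txnrd1* at 12.3 ± 0.184 and *Gpx4* at 5.48 ± 0.427. The ranges of *Prdx4* and *Prdx1* overlapped, as did those of *Sod2* and *Prdx3* and of *Prdx3* and *Prdx6*, so these neighbours have no order. *Sod1* lay above 99.4% of the genes in the table, *Prdx4* above 97.9% and *Gpx4* above 39.3%.

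In *Eef1g*-cKO the first places were again *Sod1* at 1005 ± 17.7 FPKM, *Prdx4* at 584 ± 74.0 and *Prdx1* at 178 ± 6.95, now with no overlap between them. *Sod2* came next at 22.0 ± 0.281. *Prdx3*, *Txn1*, *Prdx2*, *Txnrd1* and *Prdx6* followed between 9.57 and 4.97 FPKM, each overlapping with the next, and *Gpx4* at 0.799 ± 1.13 was last. *Prdx4* then lay above 99.1% of the genes in the table. *Txn1* went from above 82.0% of the genes in control to above 54.7% in *Eef1g*-cKO, and *Prdx2* from above 83.4% to above 51.7%.

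These levels divide by the deposited gene length, which equals the RefSeq exon union on GRCm38 for 5 of the 10 genes. It counts untranslated exons, in which few footprints are expected, and *Sod2*, with 669 coding bases in a length of 3824, is the most affected. Divided by RefSeq coding length, a choice made after seeing the data, the control level of *Sod2* was 164 ± 47.7 reads per coding kilobase and 1000000 reads, and *Sod2* moved from the sixth to the fourth place. *Prdx1* then stood above *Prdx4* in control, at 496 ± 89.8 against 297 ± 31.2, and below it in *Eef1g*-cKO, at 420 ± 16.4 against 687 ± 87.2. The control order of *Prdx2* and *Txn1* was also reversed, with *Txn1* at 123 ± 0.248 and *Prdx2* at 64.2 ± 1.84. Within a gene the FPKM ratio between genotypes does not change with the length used, but the fold change on the log2(FPKM + 1) scale does, as with another pseudocount: that of *Gpx4* was -3.76 with a pseudocount of 0.1 and -0.87 with 5.

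Summed over the 10 genes, reads did not make up a lower part of the library in *Eef1g*-cKO. The genes had 3395 and 2142 reads in control, compared with 354 and 680 in *Eef1g*-cKO, or 1369 and 1547 per 1000000 in control (95% Wilson intervals 1324 to 1416 and 1483 to 1614) and 1581 and 1667 in *Eef1g*-cKO (1425 to 1754 and 1546 to 1797). The means of 1458 ± 126 in control and 1624 ± 60.6 in *Eef1g*-cKO (SD, n = 2) gave an exact two-sided permutation p = 0.33, the smallest that 2 against 2 libraries allow. The sum was thus no lower in *Eef1g*-cKO although 8 of the 10 genes had lower values there.

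*Sod1*, *Prdx1* and *Prdx4* held 77.9% and 78.8% of the 10 genes' reads in control against 89.8% and 91.5% in *Eef1g*-cKO. *Prdx4* held 16.6% (95% Wilson interval 15.4% to 17.9%) and 17.1% (15.6% to 18.7%) in control and 32.8% (28.1% to 37.8%) and 37.2% (33.7% to 40.9%) in *Eef1g*-cKO. The other 7 genes went from 22.1% and 21.2% to 10.2% and 8.53%. *Sod1* held 36.7% and 45.0% in control against 40.7% and 39.6% in *Eef1g*-cKO, with the *Eef1g*-cKO libraries between the control libraries.

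**Figure D3:**
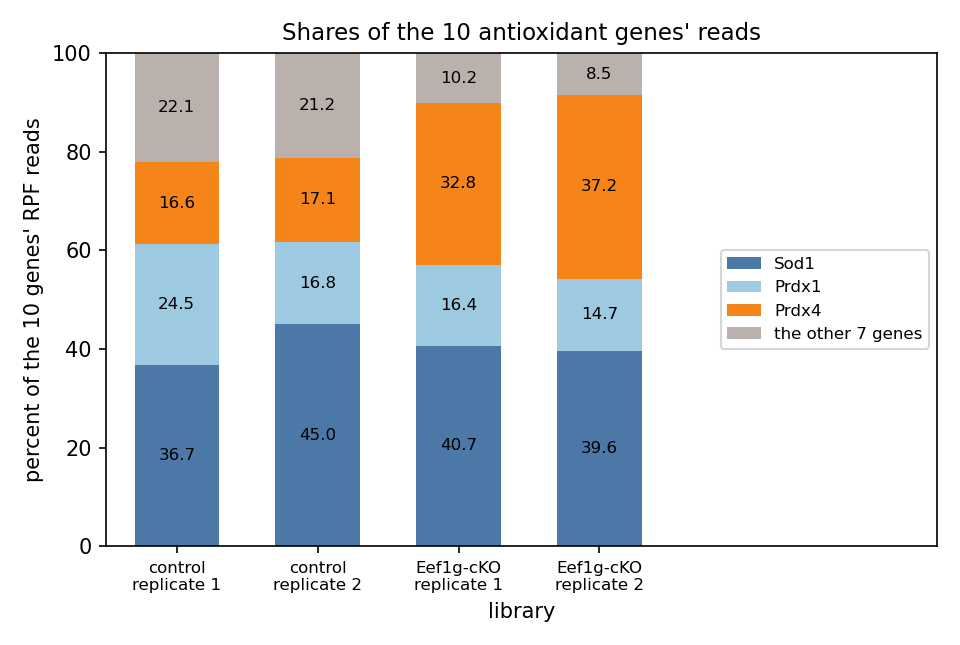
Percent of the RPF reads on the 10 genes that fell on *Sod1*, *Prdx1*, *Prdx4* and the other 7 genes, 1 stacked bar per library. The *Prdx4* segment covers 16.6% and 17.1% in control against 32.8% and 37.2% in *Eef1g*-cKO, and the segment of the other 7 genes shrinks from above 21% to 10.2% and 8.53%.

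The wider pathway was followed in 93 further genes on 6 lists, of which 80 were in the table and 76 tested. Of these, 1 was called higher and 9 lower by adjusted p (limma), beside 2.87% and 4.97% of all tested genes, and 1 higher and 26 lower by unadjusted p, beside 7.32% and 16.3%. Single lists hold 7 to 20 tested genes, so their counts below are a description, to be set against the same shares. None of the adjusted calls held without control replicate 1 or without control replicate 2. The median log2 fold change of the 76 genes was -0.74. The list of other peroxiredoxin, thioredoxin and glutaredoxin genes had none of its 9 tested genes called by adjusted p, and 2 called lower by unadjusted p. *Prdx5*, a peroxiredoxin of mitochondria and peroxisomes, was at 247 and 406 FPKM in control, compared with 162 and 89.1 in *Eef1g*-cKO (limma, adjusted p = 0.0738; edgeR, 0.00378). *Txnl1*, a thioredoxin-like protein tied to the proteasome, was at 68.4 and 122 FPKM in control, compared with 126 and 149 in *Eef1g*-cKO (limma, adjusted p = 0.263).

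Glutathione genes gave the lowest list median, -1.71 over 20 tested genes, or -1.41 with genes lacking *Eef1g*-cKO reads at their bound. None was called higher, while 2 fell by adjusted p and 9 were called lower by unadjusted p. *Gsr*, the reductase that regenerates glutathione, was at 62.6 and 102 FPKM in control, compared with 10.0 and 8.26 in *Eef1g*-cKO, on 6 and 9 reads. It fell by 3.01 ± 0.32 on the log2 scale (SE; limma, adjusted p = 0.0225). *Gpx7*, a glutathione peroxidase of the endoplasmic reticulum like *Prdx4* in its location, was at 10.3 and 5.95 FPKM in control and had no read in either *Eef1g*-cKO library (limma, adjusted p = 0.0350; left out by edgeR for low counts). With a floor of 3 reads over both libraries as its bound, and the control reads taken as exact, it was at least 2.24-fold lower. The 95% counting interval of its pooled ratio reached up to 0.576. *Gstm5*, a glutathione transferase, was at 48.7 and 48.4 FPKM in control, compared with 63.7 and 61.9 in *Eef1g*-cKO (limma, adjusted p = 0.279).

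Of 11 tested genes for removal of superoxide, peroxide and oxidised methionine, 3 fell by adjusted p and 5 were called lower by unadjusted p. None was called higher by either. *Ccs*, the copper chaperone that loads SOD1, was at 53.0 and 82.0 FPKM in control, compared with 16.9 and 18.6 in *Eef1g*-cKO, a log2 fold change of -1.84 ± 0.29 (SE; limma, adjusted p = 0.0333) beside the 0.14 of *Sod1*. *Cat*, catalase, was at 28.3 and 34.3 FPKM in control, compared with 5.25 and 4.80 in *Eef1g*-cKO (limma, adjusted p = 0.0283), and *Msrb1*, a methionine sulfoxide reductase, was at 16.4 and 28.5 against 5.04 and 2.77 (limma, adjusted p = 0.0451). In *Eef1g*-cKO, *Ccs* rests on 4 and 8 reads and *Cat* on 3 and 5, so their counting error is large. The *Msrb1* values in *Eef1g*-cKO are 1 read in each library, and its call was lost with edgeR (adjusted p = 0.0550) and DESeq2 (adjusted p = 0.237). *Park7* (DJ-1), the most abundant gene on this list, was at 605 and 1282 FPKM in control, compared with 386 and 350 in *Eef1g*-cKO (limma, adjusted p = 0.0911; edgeR, 0.00257).

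*Txnrd1* and *Gpx4* share their unusual codon with other selenoproteins. Of 17 tested genes for selenoproteins and their synthesis, 2 fell by adjusted p and 5 were called lower by unadjusted p. None was called higher by either, and the list median was 0.07. This is not a median of selenoproteins, since the list includes synthesis genes that are not selenoproteins and some selenoproteins are on other lists. Those on other lists, named here after their values were seen, had log2 fold changes of -2.75 (*Gpx1*), -2.25 (*Msrb1*), -1.32 (*Txnrd2*), -0.997 (*Txnrd3*) and 1.58 (*Gpx3*). Of these only *Msrb1* passed the adjusted p. The genotypes overlapped for *Gpx3*, whose control libraries held 1 and 7 of its reads and whose *Eef1g*-cKO libraries held 6 and 1. Its direction is therefore not resolved (limma, adjusted p = 0.362). Counting error is also large for *Gpx1*, with *Eef1g*-cKO counts of 2 and 0, and for *Txnrd2*, with 3 in each library. *Selenoh*, a nuclear selenoprotein listed under an older symbol, was at 245 and 262 FPKM in control, compared with 65.8 and 21.7 in *Eef1g*-cKO (limma, adjusted p = 0.0384), and *Selenow* was at 38.3 and 41.0 against 6.33 and 13.9 (limma, adjusted p = 0.0459). *Selenow* rests on 1 and 4 reads in *Eef1g*-cKO, and its call was lost with edgeR (adjusted p = 0.0645) and DESeq2 (adjusted p = 0.252). *Selenos*, a selenoprotein of the endoplasmic reticulum membrane, was at 43.0 and 35.2 FPKM in control, compared with 71.2 and 63.8 in *Eef1g*-cKO (limma, adjusted p = 0.0869). Leaving *Gpx3* aside, *Selenos* was higher and *Selenoh* lower in both *Eef1g*-cKO libraries, although only *Selenoh* of this pair passed the adjusted p. Selenoproteins thus did not shift together in these values.

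NRF2, encoded by *Nfe2l2*, is the transcription factor that switches on many antioxidant genes, *Prdx1*, *Txn1* and *Txnrd1* among them. *Nfe2l2* was at 32.3 and 30.4 FPKM in control, compared with 3.62 and 8.93 in *Eef1g*-cKO, on 2 and 9 reads (log2 fold change -2.26 ± 0.44, SE; limma, adjusted p = 0.0420). On the list of NRF2 regulators and targets, 4 of 12 tested genes were called lower by unadjusted p and 1 higher. By adjusted p, 2 fell and 1 rose. The other gene that fell was *Hmox2*, the constitutive heme oxygenase, which is on the list beside the NRF2 target *Hmox1* but is not itself known as a target, at 141 and 161 FPKM against 62.1 and 77.2 (limma, adjusted p = 0.0434), and the gene that rose was *Fth1*, the ferritin heavy chain, at 40.0 and 44.9 against 112 and 92.5 (limma, adjusted p = 0.0379). *Hmox1*, the inducible heme oxygenase, named here after its values were seen, was at 61.2 and 77.0 FPKM in control and had 170 and 112 in *Eef1g*-cKO (limma, adjusted p = 0.0772; edgeR, 0.00496; DESeq2, 0.0242). *Sqstm1*, an autophagy receptor, was at 158 and 169 FPKM in control, compared with 134 and 128 in *Eef1g*-cKO (limma, adjusted p = 0.304).

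Of 7 tested genes that supply NADPH, none was called by adjusted p and 1 was called lower by unadjusted p. *Taldo1*, transaldolase, was at 150 and 311 FPKM in control, compared with 70.0 and 36.5 in *Eef1g*-cKO (limma, adjusted p = 0.0501; edgeR, 3.21e-04). *Pgd*, an NADPH-producing dehydrogenase of the pentose phosphate pathway, was at 135 and 201 FPKM in control, compared with 169 and 157 in *Eef1g*-cKO (limma, adjusted p = 0.964).

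**Figure D4:**
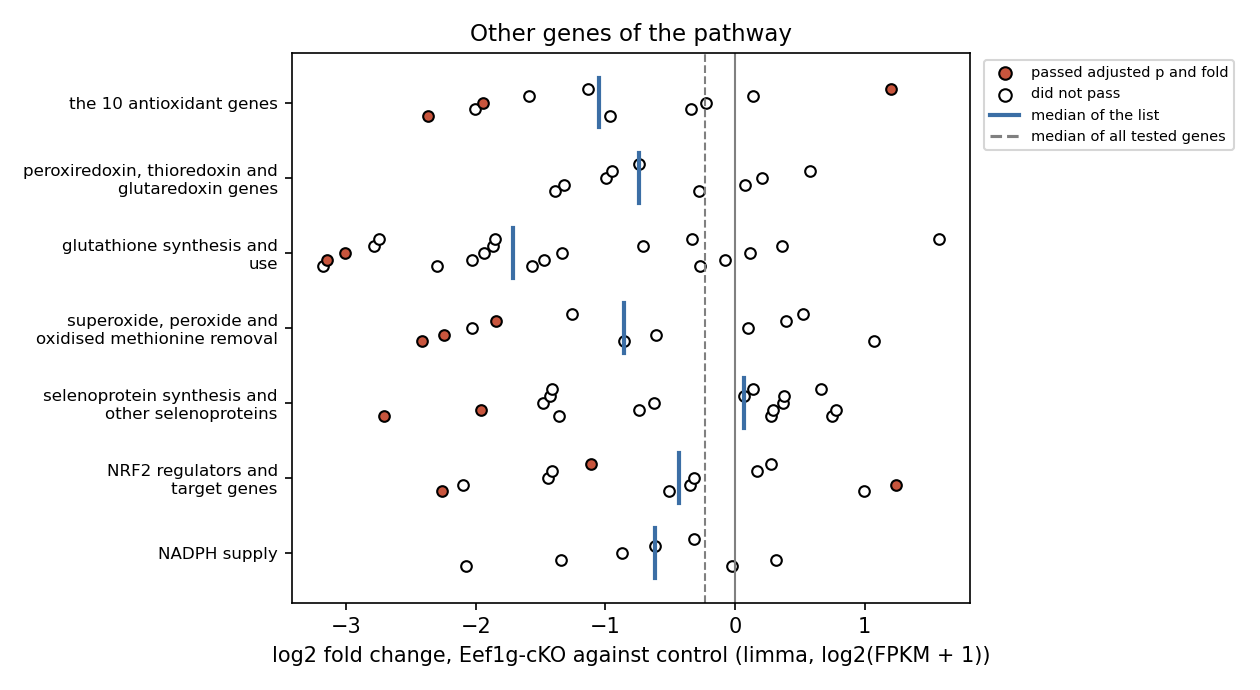
Log2 fold change in *Eef1g*-cKO against control (limma on log2(FPKM + 1)) for the 10 genes and for the tested genes of the 6 further lists, 1 point per gene, with filled points for genes past the adjusted p and fold thresholds. Filled points lie mostly on the left, with *Prdx4* at 1.20 and *Fth1* at 1.25 on the right. The list medians run from -1.71 for glutathione genes to 0.07 for the list of selenoproteins and their synthesis genes.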

How the data were processed

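Ribo-seq libraries of leptotene/zygotene spermatocytes from 12 dpp mice, 2 control and 2 *Eef1g*-cKO, were analysed from 1 deposited table. RPFs of 26 to 34 nt had been size-selected. The submitters' processing notes list cutadapt, Bowtie and STAR and the builds mm10 and hg38, without roles; the Ribo-seq counting method is not given in the sources used here. The authors computed the deposited FPKM from reads on genes and gene length. The deposited normalized counts are a signal, each count divided by the authors' size factor per library, and 100% of values were whole multiples of 1 step within 1e-06, which gave back the reads. The table also holds 6 columns of the authors' own comparison (such as fold change and p-value), which were not used. Genes with under 10 reads over the libraries are not in it.

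Genotypes were compared on log2(FPKM + 1) by limma 3.58.1 under R 4.3.3, its prior variance following a trend, for genes averaging 1 FPKM or more across libraries. A fold change on this scale understates that of low genes. Count models on the recovered reads, edgeR 4.0.16 and DESeq2 1.42.0, were alternatives, besides other pseudocounts, filters, centring, prior, a replicate block and each library left out. Scripts were tested on simulated data. The members, lists and tests were chosen with earlier results of these data known. Named are all members, *Eef1g*, genes of the 6 pathway lists past the adjusted p and fold thresholds, and the 2 most abundant tested genes of each pathway list. *Hmox1* and the selenoproteins *Gpx1*, *Gpx3*, *Txnrd2* and *Txnrd3* were named after their values were seen. Cell type markers are given as sums. Older symbols were matched through RefSeq. Depth ranged from 223906 to 2479504 reads, and 1 read on a gene of 1 kb was worth 0.403 to 4.47 FPKM. Coding windows of 30 bases were searched on both strands of the GRCm38.p6 chromosomes (Python 3.11.15).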

Additional observations from a re-analysis of the deposited data

How the results depend on the processing

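Of the 10 members, 3 were called by adjusted p, and 4 were called with pseudocount 5, a minimum mean of 5 FPKM, the replicate block or edgeR. None was called with pseudocount 0.1 or without a trend in the prior variance, where 5 and 6 passed the unadjusted p, and 1, *Prdx4*, was called by DESeq2. With each library left out in turn the count was 0 to 4 by adjusted p, with 0 without either control library, and 2 to 7 against 6 by unadjusted p, where the lone library is assumed to vary like the others. The pathway genes called by adjusted p, 10 of 76, were 1 with pseudocount 0.1, 5 without the filter on low values, 0 without the trend (25 by unadjusted p), 16 with the replicate block, 16 by edgeR and 0 to 25 with a library left out. By unadjusted p, 27 became 15 by DESeq2 and 8 to 37 with a library left out. The median log2 fold change of the members, -1.05, was -0.77 with pseudocount 5, -0.83 after centring on library medians, and -1.33 to -0.67 with a library left out. The log2 fold change of *Sod1* was reversed to -0.10 without control replicate 1 (0.37 without control replicate 2), and the other members' directions were kept under each alternative run for them. edgeR left *Gpx4* out for low counts. Across 10475 genes, the differences between replicates 1 and 2 in each genotype were not correlated (r = -0.01). The median gene had only 5 and 8 reads in the *Eef1g*-cKO libraries, where counting error can hide such a correlation. Whether replicate numbers pair the libraries thus cannot be decided from these values. The replicate block made 4 member calls in place of 3, by adding *Prdx6* (limma, adjusted p = 0.0499). The mean of the members' summed reads per 1000000 stayed higher in *Eef1g*-cKO, by 166 as reported, by 112 without the gene with the most reads and by 231 with DESeq2 size factors. Without that gene the genotypes overlapped, with *Eef1g*-cKO replicate 1 at 1670 below control replicate 2 at 1698 (exact permutation p = 0.667). Per coding length, 4 of 10 members kept their place in the order of levels in control and 6 of 10 in *Eef1g*-cKO. Depth limits *Gpx4*, *Prdx2*, *Txn1*, *Prdx6* and *Prdx3* most, each with at most 4 reads in an *Eef1g*-cKO library. The cause of these differences was not tested.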
